A study of Mus musculus with 34 samples.

Results

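Osteoblast lineage genes were followed as 9 named members, Runx2, Sp7, Dlx5, Msx2, Alpl, Spp1, Sparc, Postn and Phex, among 16562 genes tested in cultures and 12595 in tumours of a mouse osteosarcoma line. The members were taken by symbol. The culture table listed 6 of the 9 (Runx2, Msx2, Alpl, Spp1, Sparc and Phex) and the tumour table listed 6 of the 9 (Runx2, Sp7, Msx2, Alpl, Spp1 and Sparc). The tables shared 5 members. Dlx5 and Postn were listed in neither table, Sp7 was not listed for cultures and Phex was not listed for tumours. No value is given for a gene that a table did not list.

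MOSJ-Dkk1 cells are murine osteochondral sarcoma cells, labelled with red fluorescent protein, that constitutively secrete human Dkk-1 from a cytomegalovirus promoter. The 6 culture groups crossed log phase growth or nutritional stress (confluent culture without fresh medium) with no morpholino (NT), 5 µM of a scrambled control morpholino (scrMo) or 5 µM of a morpholino against human Dkk-1 (DkkMo), with 3 libraries in each group. The doses are those of the labels, with the unit as in the methods, and a legend of the study names a higher DkkMo dose for the log phase comparison. The 4 tumour groups were xenografts of the same cells in the hindlimb of nude NU/J mice aged 2 months at injection, which lack a thymus. These mice received saline (NT), doxorubicin (DRB), DkkMo or DRB with DkkMo (combination), with 4 tumours in each group. No tumour group received scrMo, every group carried the Dkk-1 transgene, and the cells are a single line. The tables list mouse genes, so the transcript of human Dkk-1 was not analysed here. Tumour RNA came from formaldehyde-fixed tissue that still held stroma. The labels do not say that the 3 libraries of a group came from independent experiments, and the titles number 2 of the stressed NT libraries alike, so p values measure the spread between these libraries.

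Osteoblasts build bone from mesenchymal precursors. Runx2 is the transcription factor that commits cells to this lineage, and Sp7 (osterix) acts after it, while Dlx5 and Msx2 are homeobox regulators of skeletal cells. Alpl encodes tissue non-specific alkaline phosphatase, which frees phosphate for mineral, and Phex encodes an endopeptidase of osteoblasts and osteocytes that is needed for phosphate balance. Spp1 (osteopontin), Sparc (osteonectin) and Postn (periostin) encode secreted matrix proteins. Dkk-1 blocks canonical Wnt signalling, a pathway that drives osteoblast differentiation, which is why these genes are of interest in cells made to secrete it.

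Reads on listed genes numbered 25.9 to 44.8 M per culture and 26.9 to 125 M per tumour (M, 1e+06 reads). By tumour group they numbered 53.8 to 125 M in NT, 85.3 to 106 M with DRB, 26.9 to 52.1 M with DkkMo and 28.3 to 41.1 M with the combination. The defining osteoblast markers were only partly listed in cultures: 5 of 8 were present, with Ibsp, Dmp1 and Sp7 not listed. Of 15 chondrocyte markers, 6 were listed, with Sox9 the highest and aggrecan (Acan) not listed. Values are normalised read counts (reads divided by the size factor of the library), and log2 fold changes are differences of the deposited variance-stabilised values, which shrink the change of genes with few reads. A gene was DE when the adjusted p of limma was below 0.05 and the change exceeded 1.5-fold.

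Sequence upstream of the start is shown for Spp1 and Sparc, matrix members that were both lower under nutritional stress, and for Runx2, which was higher. Each run is the 250 bases before a RefSeq start (GRCm38.p6), written 5′ to 3′ on the strand of the gene, and capitals mark ACCACA, the core read by RUNX factors, on either strand. Spp1 lies at chr5:104434861-104435110 on the plus strand, Sparc at chr11:55420081-55420330 on the minus strand and Runx2 at chr17:44814628-44814877 on the minus strand.
Spp1: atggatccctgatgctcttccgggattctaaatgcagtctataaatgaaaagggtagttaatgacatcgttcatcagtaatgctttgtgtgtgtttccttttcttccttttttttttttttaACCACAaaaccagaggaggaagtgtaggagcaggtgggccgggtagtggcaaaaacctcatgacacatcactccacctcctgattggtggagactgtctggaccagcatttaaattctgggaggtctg
Sparc: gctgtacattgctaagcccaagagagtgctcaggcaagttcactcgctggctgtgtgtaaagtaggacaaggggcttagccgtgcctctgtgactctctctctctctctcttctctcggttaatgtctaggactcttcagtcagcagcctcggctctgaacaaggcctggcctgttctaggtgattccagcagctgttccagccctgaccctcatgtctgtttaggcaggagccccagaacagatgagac
Runx2: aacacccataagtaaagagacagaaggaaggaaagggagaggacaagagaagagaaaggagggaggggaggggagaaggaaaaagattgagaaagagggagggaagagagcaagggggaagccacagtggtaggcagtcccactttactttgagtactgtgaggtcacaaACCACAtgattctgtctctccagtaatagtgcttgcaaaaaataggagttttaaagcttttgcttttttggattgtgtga
The Spp1 match began 128 bases before the start and the Runx2 match 80 bases before it. Runx2 had 2 more, at bases 24 and 32 after the start, and a second RefSeq window of Spp1, not shown, had 0. Sparc had no match in these 250 bases and 1 that began at base 36 after the start. Over windows reaching 50 bases past the start, 16.8% of 32851 mouse promoter windows held ACCACA or its reverse TGTGGT. Of the 9 members, 7 had at least 1 such window, with 10 windows between them. The core was in 3 of these 10 windows, 1 each of Runx2, Spp1 and Sparc. TTCAAAG, read by TCF/LEF factors of the Wnt pathway, was in no window of the members and in 5.14% of all windows. TAATTG, a homeodomain core, was in windows of Postn and Phex and in 8% of all windows. GGGCGG, the GC box read by Sp factors, was in windows of Msx2 and Alpl and in 35.7% of all windows. These matches are letters in a window and not measured binding sites.

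In cultures the members spanned nearly the whole range of expression. Spp1 ranked 14 of 16562 genes by its mean deposited value, Sparc 726, Runx2 2355, Msx2 6341, Phex 11647 and Alpl 15158. Per kilobase of exon the median normalised read count was 48459 for Spp1, 1645 for Sparc, 346 for Runx2, 305 for Msx2, 16.6 for Phex and 2.75 for Alpl. Alpl was close to absent, with 7 to 24 reads in each culture, so its values carry a large counting error. Phex had 40 to 166 reads. The plot of normalised read counts by culture group shows the 18 libraries of each member.

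**Figure D1:**
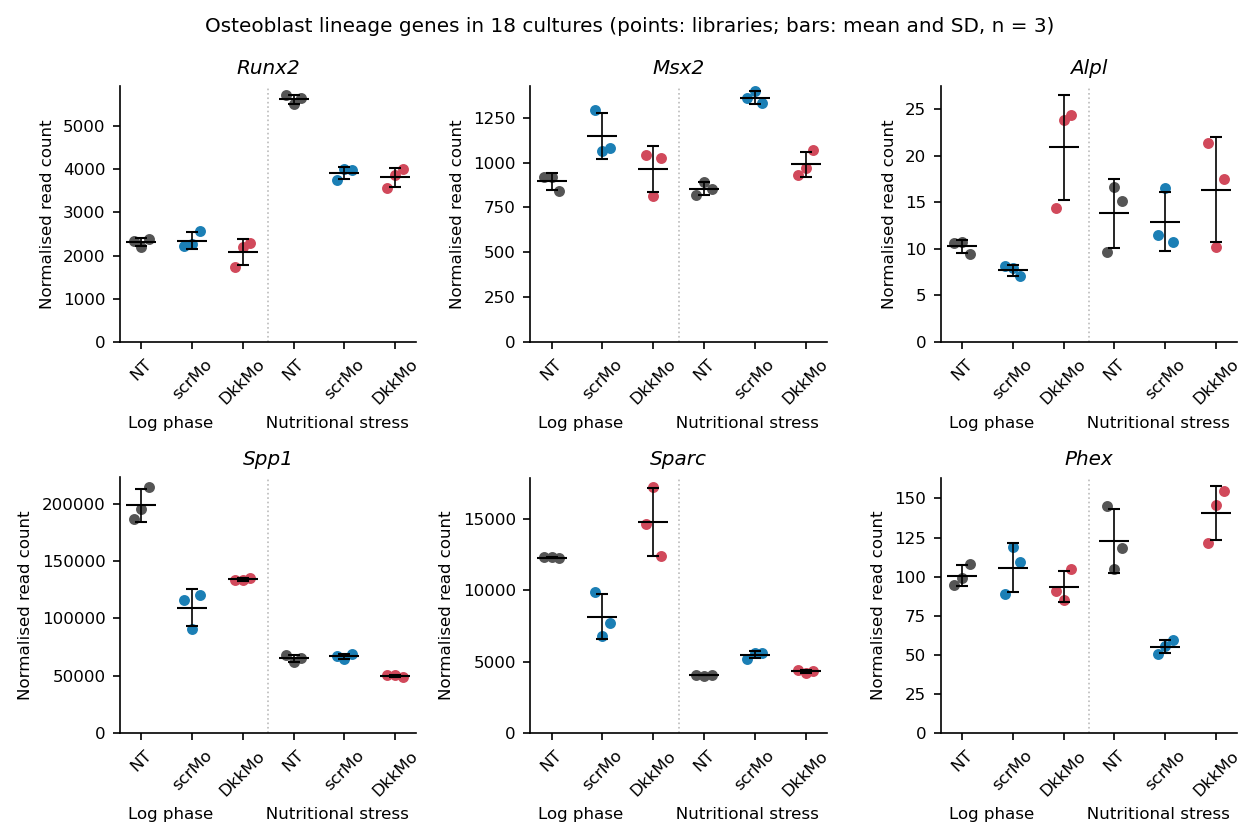
Normalised read counts (linear axes from 0) of the 6 members listed in cultures, by treatment in log phase (left of the dotted line) and nutritional stress (right). Points are libraries and bars are the mean and SD of 3 libraries. Runx2 was higher in all 9 stressed cultures than in all 9 log phase cultures, Spp1 and Sparc were lower, and Phex was lowest in scrMo under stress at 50.9 to 59.3.

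Nutritional stress was compared with log phase in each treatment, and here the members were most often DE. Among NT cultures 3 of 6 members were DE against 18.1% of all genes tested, with scrMo 2 of 6 against 10.7%, and with DkkMo 3 of 6 against 16.5%. Runx2 rose and Spp1 fell in all 3 comparisons, while Sparc fell among NT and DkkMo-treated cultures.

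Runx2 in log phase read 2337, 2198 and 2372 normalised read counts in NT, 2220, 2259 and 2561 with scrMo, and 1736, 2194 and 2298 with DkkMo. Under stress it read 5718, 5514 and 5644 in NT, 3741, 4004 and 3991 with scrMo, and 3561, 3863 and 4002 with DkkMo. No stressed culture overlapped a log phase culture, and the NT cultures under stress stood above all others. The log2 fold change was 1.19 ± 0.07 (SE, n = 3 per group, limma adjusted p = 4.71e-11) in NT, 0.68 ± 0.07 (adjusted p = 2.63e-07) with scrMo and 0.80 ± 0.07 (adjusted p = 1.56e-08) with DkkMo. The rise was smaller with either morpholino than without: the difference was -0.52 ± 0.10 (adjusted p = 5.24e-04) for scrMo and -0.39 ± 0.10 (adjusted p = 0.00915) for DkkMo. Neither difference reached 1.5-fold. In the order of group means, scrMo and DkkMo overlapped under stress, and the 3 log phase groups overlapped as neighbours.

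Spp1 in log phase read 186214, 194979 and 214487 in NT, 116256, 90890 and 120509 with scrMo, and 133759, 133239 and 135488 with DkkMo. Under stress it read 68414, 62181 and 65496 in NT, 67301, 64781 and 68830 with scrMo, and 50408, 50824 and 49248 with DkkMo. The 9 stressed cultures lay below the 9 log phase cultures, and only NT and scrMo under stress overlapped among neighbouring groups. The log2 fold change under stress was -1.60 ± 0.09 (SE, adjusted p = 1.21e-11) in NT, -0.69 ± 0.09 (adjusted p = 2.33e-06) with scrMo and -1.41 ± 0.09 (adjusted p = 8.92e-11) with DkkMo. With array weights the scrMo value was -0.55 and no longer DE.

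Sparc in log phase read 12307, 12293 and 12240 in NT, 9891, 6831 and 7700 with scrMo, and 14649, 17211 and 12407 with DkkMo. Under stress it read 4075, 4037 and 4101 in NT, 5200, 5626 and 5629 with scrMo, and 4442, 4242 and 4323 with DkkMo. None of the 6 groups overlapped its neighbour in the order of means, and scrMo was the lowest group in log phase but the highest under stress. The log2 fold change under stress was -1.53 ± 0.10 (SE, adjusted p = 1.49e-10) in NT and -1.69 ± 0.10 (adjusted p = 4.82e-11) with DkkMo. With scrMo it was -0.53 ± 0.10 (adjusted p = 2.00e-04), under the fold threshold, and -0.64 and DE when the second scrMo log phase library was left out.

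Msx2, Alpl and Phex were not DE between the conditions in any treatment. Msx2 in NT was 896 ± 46.4 (SD) in log phase and 854 ± 36.2 under stress, and its log2 fold change was -0.05 in NT, 0.21 (adjusted p = 0.0182) with scrMo and 0.04 with DkkMo. Centring each library on its median raised the differences between stress and log phase by 0.158 in NT, 0.0655 with scrMo and 0.165 with DkkMo on the log2 scale, and so turned the NT value of Msx2 to 0.11. Phex differed by treatment: its log2 fold change under stress was 0.11 (adjusted p = 0.103) in NT, -0.32 ± 0.06 (adjusted p = 1.26e-04) with scrMo and 0.24 ± 0.06 (adjusted p = 0.00147) with DkkMo. On the log2 of the normalised read count plus 1, which does not compress low values, the scrMo change of Phex was -0.91 and DE. Alpl was 10.3 ± 0.721 (SD) in NT log phase and 13.8 ± 3.69 under stress, within overlapping ranges.

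**Figure D2:**
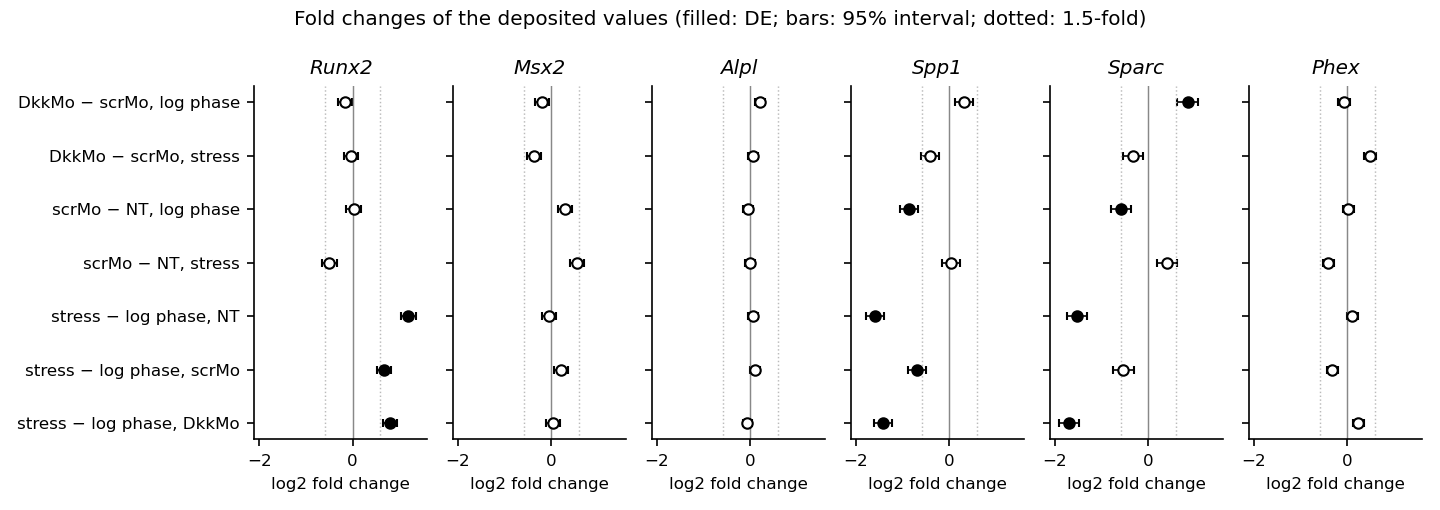
Log2 fold changes of the deposited values of 6 members (columns) in 7 comparisons (rows), with the 95% interval of limma. Filled points were DE, and dotted lines mark 1.5-fold. Runx2 lay right of 0 and Spp1 and Sparc left of 0 in the 3 rows of stress against log phase, and Alpl stayed near 0 on this compressed scale.

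DkkMo was compared with scrMo to ask what the Dkk-1 morpholino changed beyond the control morpholino. In log phase 1 of 6 members, Sparc, was DE against 1.97% of all genes tested. Sparc rose by 0.84 ± 0.10 on the log2 scale (SE, n = 3 per group, limma adjusted p = 1.40e-05), from a mean of 8141 ± 1577 (SD) with scrMo to 14756 ± 2404 with DkkMo, and the 3 libraries of each group did not overlap. Without any 1 of the 6 libraries the change lay between 0.72 and 0.98 and stayed DE. Spp1 was 0.31 ± 0.09 higher (adjusted p = 0.0183) and Msx2 0.20 lower (log2 fold change -0.20 ± 0.07, adjusted p = 0.0461), both under 1.5-fold. Runx2 (-0.16, 95% interval -0.318 to -0.00773, adjusted p = 0.122) and Phex (-0.07, -0.187 to 0.0572, adjusted p = 0.467) did not pass.

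Alpl in log phase read 8.15, 7.87 and 7.02 normalised read counts with scrMo and 14.4, 23.8 and 24.4 with DkkMo. These groups did not overlap, but they rest on 7 to 8 reads and 13 to 24 reads per library. The deposited values differed by 0.21 ± 0.05 (adjusted p = 0.00468), which is under 1.5-fold. On the log2 of the normalised read count plus 1 the difference was 1.30 and DE, and voom on the recovered reads gave 1.36 (adjusted p = 0.00666). NT, at 10.7, 10.7 and 9.42, lay between scrMo and DkkMo.

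Under nutritional stress 0 of 6 members were DE between DkkMo and scrMo by limma, against 1% of all genes, and 4 of 6 had an unadjusted p under 0.05, as did 32.6% of all genes. Voom on the recovered reads made 1 of 6 DE and 5.54% of all genes. Phex, the endopeptidase gene, read 50.9, 55.9 and 59.3 with scrMo and 122, 146 and 155 with DkkMo. Its groups were far apart, and the deposited values differed by 0.49 ± 0.06 (adjusted p = 8.65e-06), under 1.5-fold. On the log2 of the normalised read count plus 1 the difference of Phex was 1.33 and by voom 1.32 (adjusted p = 2.07e-05), both DE. Spp1 (-0.41 ± 0.09, adjusted p = 0.00264), Msx2 (-0.38 ± 0.07, adjusted p = 8.97e-04) and Sparc (-0.32 ± 0.10, adjusted p = 0.0323) were lower with DkkMo by less than 1.5-fold. Runx2 differed by -0.04 with a 95% interval of -0.192 to 0.118.

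The matrix members therefore differed in opposite directions between the conditions. The difference of the DkkMo effect (stress minus log phase) was itself DE for 2 of 6 members against 3.7% of all genes. It was -1.16 ± 0.15 for Sparc (SE, limma adjusted p = 2.07e-05) and -0.72 ± 0.13 for Spp1 (adjusted p = 5.40e-04). Phex went the other way with 0.55 ± 0.08 (adjusted p = 1.14e-04), just under 1.5-fold, and was DE on the log2 of the normalised read count plus 1, at 1.49. No such difference passed for Runx2 (0.13, adjusted p = 0.426), Msx2 (-0.17, adjusted p = 0.245) or Alpl (-0.16, adjusted p = 0.117).

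The control morpholino was compared with NT to see what scrMo changed by itself. This comparison and that of DkkMo with scrMo share the scrMo libraries. In log phase 2 of 6 members were DE against 2.45% of all genes. Spp1 fell by 0.87 on the log2 scale (SE 0.09, adjusted p = 1.05e-06) and Sparc fell by 0.59 (SE 0.10, adjusted p = 2.90e-04). The Sparc value lay at the fold threshold: it was -0.48 without the second scrMo library, -0.56 without the third and -0.54 with libraries centred on their medians, and in none of these was it DE. Under stress 0 of 6 were DE by limma against 4.43% of all genes, with 4 of 6 at an unadjusted p under 0.05 (53% of all genes) and 2 of 6 DE by voom (17.8% of all genes).

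Under stress Msx2 read 818, 891 and 854 in NT and 1361, 1398 and 1330 with scrMo. It was highest with scrMo in both conditions, and under stress the deposited values differed by 0.54 ± 0.07 (adjusted p = 6.58e-06). On the log2 of the normalised read count plus 1 the same difference was 0.67 and DE. Phex was lower with scrMo than in NT, by -0.40 ± 0.06 (adjusted p = 1.81e-05) in deposited values and -1.12 on the log2 of the normalised read count plus 1, where it was DE. Runx2 (-0.49 ± 0.07, adjusted p = 2.50e-05) was lower and Sparc (0.40 ± 0.10, adjusted p = 0.00329) higher with scrMo, both under 1.5-fold. The difference of the scrMo effect between stress and log phase was DE for 2 of 6 members against 10.9% of all genes: it was 1.00 ± 0.15 (adjusted p = 2.00e-05) for Sparc and 0.90 ± 0.13 (adjusted p = 1.43e-05) for Spp1.

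DkkMo was compared with NT as well. In log phase 0 of 6 members were DE by limma and by voom, against 0.827% and 3.44% of all genes, and 3 of 6 had an unadjusted p under 0.05, against 22.8%. Spp1 came nearest by limma, at -0.56 ± 0.09 (adjusted p = 4.64e-04), and was -0.61 and DE without the first NT library. Alpl was 10.3 in NT and 20.9 with DkkMo, without overlap, on 10 to 15 and 13 to 24 reads per library. Its log2 fold change was 0.16 ± 0.05 (limma adjusted p = 0.0513) and 0.98 by voom (adjusted p = 0.0501). Sparc was 12280 ± 35.5 (SD) in NT and 14756 ± 2404 with DkkMo (log2 fold change 0.25, adjusted p = 0.15). Under stress 0 of 6 were DE by limma and by voom, against 2.66% and 13.9% of all genes, with 3 of 6 at an unadjusted p under 0.05, against 49.6%. Runx2 (-0.53 ± 0.07, adjusted p = 1.78e-05) and Spp1 (-0.38 ± 0.09, adjusted p = 0.00242) were lower with DkkMo by less than 1.5-fold. Phex did not pass there (0.09, 95% interval -0.0360 to 0.209), and its 3 NT libraries at 105 to 145 overlapped those of DkkMo. The difference of the DkkMo effect against NT between the conditions was DE for 0 of 6 members by limma and by voom, against 3.92% and 13.2% of all genes, with 1 of 6 (Runx2) at an unadjusted p under 0.05, against 39.6%.

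Much of the culture transcriptome passed when the fold threshold was dropped, so the smaller changes of the members have to be read against that. At an adjusted p below 0.05 alone, DkkMo against scrMo had 4 of 6 members in log phase and 4 of 6 under stress, against 23.5% and 20.9% of all genes. For scrMo against NT 3 of 6 passed in log phase and 4 of 6 under stress, against 26.4% and 46.8%, and for DkkMo against NT 1 of 6 and 2 of 6, against 9.81% and 41.7%. Between stress and log phase 3 of 6 passed in NT, 5 of 6 with scrMo and 4 of 6 with DkkMo, against 65.6%, 58.8% and 65.6%.

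Groups of 3 libraries that do not overlap were common as well. DkkMo and scrMo did not overlap for 4 of 6 members in log phase and 4 of 6 under stress, against 26.9% and 44.9% of all genes. The counts were 4 of 6 and 4 of 6 for scrMo against NT (37.8% and 63.5% of all genes) and 3 of 6 and 4 of 6 for DkkMo against NT (24.1% and 59.4%). Stress and log phase did not overlap for 3 of 6 members in NT, 6 of 6 with scrMo and 4 of 6 with DkkMo, against 74.6%, 62.6% and 66.8%.

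A wider list of 74 osteoblast genes, grouped by role, held 58 listed genes in cultures beside the members. Between stress and log phase in NT, 28 of the 58 were DE, 5 higher and 23 lower, against 18.1% of all genes, with a median log2 fold change of -0.08 beside -0.01 over all genes. Bone matrix proteins led: 10 of 13 fell and 1 rose. Col1a1 and Col1a2, the chains of type I collagen, changed by -3.20 and -3.74 on the log2 scale, and Ogn, a small leucine-rich proteoglycan, changed by -2.27. The gene that rose was Serpinh1, a collagen chaperone (1.03). Of 18 transcription regulators 1 rose and 4 fell, of 9 genes of mineral and phosphate handling 2 rose and 3 fell, and of 18 signalling genes 1 rose and 6 fell. Grem1, an antagonist of bone morphogenetic proteins, fell by 2.37.

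With scrMo 16 of the 58 were DE between stress and log phase (2 higher, 14 lower) against 10.7% of all genes, and with DkkMo 19 (1 higher, 18 lower) against 16.5%. Of the 13 matrix genes 5 fell with scrMo and 7 with DkkMo. On the log2 scale Col1a1 changed by -1.53 with scrMo and -3.14 with DkkMo, Col1a2 by -1.35 and -2.85, and Grem1 by -2.15 and -2.67. Fosl1, a subunit of AP-1, fell by 1.36 with scrMo, and Fam20c, a kinase of secreted phosphoproteins, fell by 2.03 with DkkMo. The plot of matrix genes under stress sets these changes beside Spp1 and Sparc. The summed normalised count of fibroblast markers (6 of 10 listed, Dcn among them) was lower under stress too, at 18686 to 21839 in NT log phase and 5326 to 5622 in NT stress. Sums of endothelial (3 of 8 listed, Cdh5 not listed) and white blood cell markers (7 of 12 listed, Adgre1 not listed) were higher, at 397 to 416 against 1433 to 1472 and at 1227 to 1363 against 2266 to 2581. The chondrocyte sum was higher as well, at 6136 to 7163 against 10249 to 10850. None of the listed markers was at its lowest value in every culture. The cultures are of a single line, so these sums describe the marker genes in it and do not count cells of other types. Dcn is also among the matrix genes above, so the fibroblast sum is not separate from them.

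**Figure D3:**
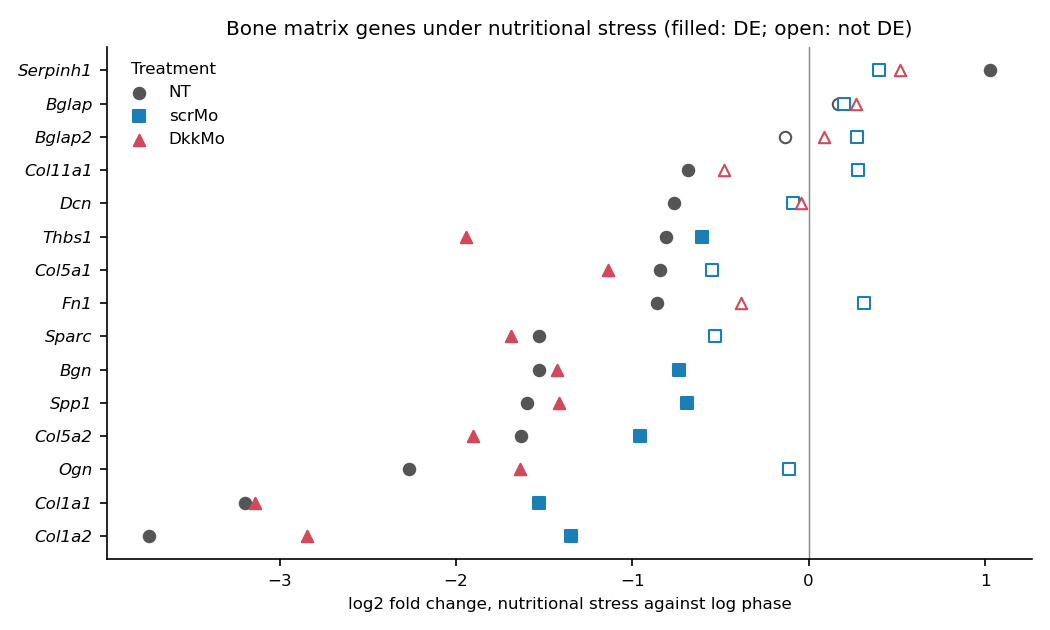
Log2 fold change under nutritional stress against log phase for Spp1, Sparc and 13 other bone matrix genes, in NT (circles), scrMo (squares) and DkkMo (triangles). Filled symbols were DE and open symbols were not. Col1a2, Col1a1, Ogn and Col5a2 lay furthest left in NT, and Serpinh1 lay furthest right.

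Between DkkMo and scrMo in log phase 7 of the 58 were DE, all higher with DkkMo and all among the 13 matrix genes, against 1.97% of all genes. The largest were Ogn (1.66 ± 0.26, SE, adjusted p = 1.33e-04), Thbs1, which encodes the matrix glycoprotein thrombospondin (1.51 ± 0.16, adjusted p = 3.14e-06), Col1a1 (1.29 ± 0.20, adjusted p = 1.25e-04) and Col1a2 (1.00 ± 0.13, adjusted p = 2.24e-05). Col1a1 read 6476 to 12158 with scrMo, 15444 to 32561 with DkkMo and 15121 to 17679 in NT. DkkMo therefore overlapped NT, and scrMo stood below both. Under stress 2 of the 58 were DE against 1% of all genes, both lower with DkkMo: Csf1, the macrophage colony-stimulating factor (-0.88), and Fam20c (-0.68). Over the 13 matrix genes the median log2 fold change was -0.02 there. The difference of the DkkMo effect against scrMo was DE and negative for 9 of 13 matrix genes, against 3.7% of all genes. It was -1.61 for Col1a1, -1.52 for Ogn, -1.50 for Col1a2 and -1.34 for Thbs1. The difference of the scrMo effect against NT was DE and positive for 8 of 13 and negative for 1, against 10.9%. It was 2.39 for Col1a2, 2.15 for Ogn and 1.67 for Col1a1. For DkkMo against NT it was DE and positive for 2 of 13 and negative for 1, against 3.92%. The first and second of these share the scrMo libraries.

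Against NT, scrMo in log phase lowered 10 of the 58 and raised 0, against 2.45% of all genes, with Ogn (-1.41), Col1a2 (-1.06), Col1a1 (-0.95) and Dcn (-0.81), the gene of decorin, the largest. The fibroblast marker sum, which includes Dcn, was 12794 to 14220 with scrMo there, below the 18686 to 21839 of NT. In a single line this sum does not count fibroblasts. Under stress 6 of the 58 rose and 4 fell against 4.43% of all genes. Csf1 (1.53) and Col1a2 (1.33) were higher, and Fosl1 (-0.89) and Twist2 (-0.80), a repressor of osteoblast maturation, were lower. With DkkMo against NT 2 of the 58 were DE in log phase, Thbs1 higher (0.87) and Dcn lower (-0.89), against 0.827% of all genes. Under stress 7 were DE (3 higher, 4 lower) against 2.66%, with Ogn (0.88) and Col1a2 (0.83) higher, and Fosl1 (-0.79) and Ano6, a membrane scramblase (-0.73), lower.

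The genes most like each member across the 18 cultures were found among expressed genes above the median level. For Sparc these were Itm2b (Pearson r = 0.995) and Itgb5 (r = 0.993), and for Spp1 Tpcn1 (r = 0.984) and Ifitm5 (r = 0.982). Runx2 was closest to Wdr48 (r = 0.989) and Srgap3 (r = 0.986), and Msx2 to Top1mt (r = 0.943) and Cnbd2 (r = 0.903). For the low members the likeness was weaker: Alpl was closest to Fgd3 (r = 0.872) and Mapre2 (r = 0.733), and Phex to Luc7l (r = 0.834) and Tada1 (r = 0.803). Between members r was 0.905 for Spp1 and Sparc, -0.897 for Runx2 and Sparc, and -0.784 for Runx2 and Spp1. The 18 points share the groups of the design, so these are descriptions of how the genes followed those groups.

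In tumours the members held another order. Alpl, near absent in cultures, had 2113 to 22996 reads per tumour and ranked 1022 of 12595 genes, while Sparc, abundant in cultures, had 31 to 317 reads and ranked 10701. Sp7, not listed in cultures, had 20 to 1077 reads. The cultures and tumours were normalised separately, so levels are not compared across them beyond rank and reads. In bulk tumours, fewer cells of a type and less RNA per cell cannot be told apart. The plot of tumour values shows each member against the share of reads on ribosomal protein genes, which was 5.79 to 10.2% in cultures and 0.00123 to 2.93% in tumours.

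**Figure D4:**
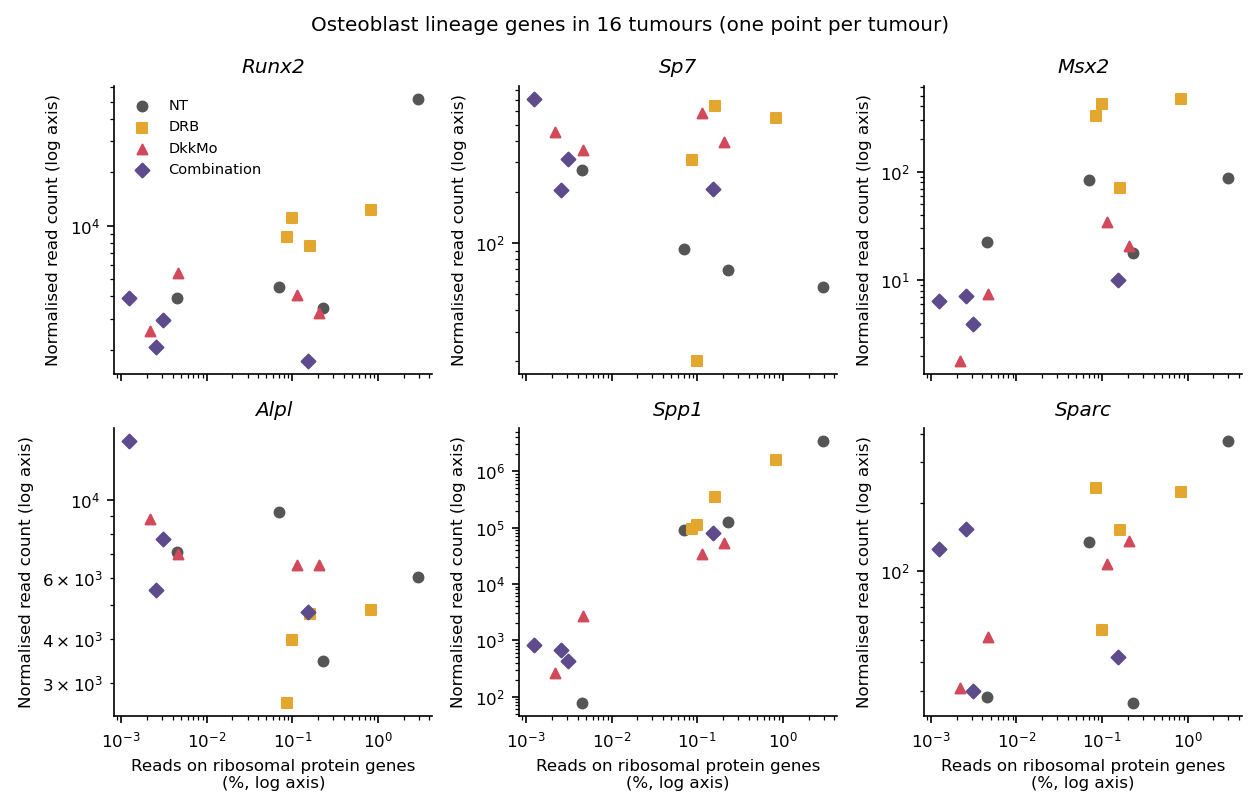
Normalised read counts (log axes) of the 6 members listed in tumours against the percentage of reads on ribosomal protein genes (log axis), 1 point per tumour, coloured by treatment. The 10 tumours with a share of 0.0707% or more held 33311 to 3401360 Spp1 counts and the 6 with less held 77.7 to 2677.

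Spp1 in tumours read 125794, 77.7, 91927 and 3401360 in NT (mice 1, 5, 6 and 7), 1600590, 347948, 113201 and 92900 with DRB (mice 14, 18, 19 and 20), 33311, 53392, 2677 and 262 with DkkMo (mice 24, 28, 29 and 31), and 684, 78591, 438 and 819 with the combination (mice 34, 36, 38 and 40). Tumours of mice 5, 29, 31, 34, 38 and 40 were low, and these are the 6 in which ribosomal protein genes took 0.00123 to 0.0046% of reads. With the log2 of the share as a covariate the Spp1 difference between the combination and DRB moved from -6.82 to -0.93 (limma adjusted p = 0.713). The share itself was 0.0861 to 0.841% with DRB and 0.00123 to 0.152% with the combination. Share and treatment therefore cannot be fully told apart in this comparison for any member, and the part of the share was not tested. The Spp1 difference was -6.60 by voom and -8.49 to -5.97 with 1 tumour left out. It was DE without mouse 36 (-8.49, limma adjusted p = 0.0498). The Spp1 difference between DkkMo and NT was -2.98 (limma adjusted p = 0.54) and depended on the fit: it was -0.03 with the covariate, -0.05 by voom, 0.79 with array weights and -5.67 to -0.98 with 1 tumour left out, and it was not DE in any of them. Alpl and Sp7 were not low in these tumours: Alpl read 5525 to 14660 there and 2638 to 9236 in the other 10, and Sp7 204 to 707 and 20.2 to 642.

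The combination was compared with DRB to ask what DkkMo changed in DRB-treated tumours. The groups also differed in depth, at 85.3 to 106 M reads with DRB and 28.3 to 41.1 M with the combination. The genes with the most reads took 46.7 to 73.5% of each DRB library and 13.5 to 18.6% of each combination library. The part of either in the differences below was not tested. Of 6 members 1, Msx2, was DE by limma against 7.35% of all genes, 0 of 6 were DE by voom (0% of all genes), and 3 of 6 had an unadjusted p under 0.05 (26.2% of all genes). Msx2 read 468, 71.4, 423 and 325 with DRB and 7.18, 10.1, 3.93 and 6.43 with the combination. The groups did not overlap (two-sided exact permutation test, p = 0.0286, which is the least that 4 against 4 allows), and the log2 fold change was -2.05 ± 0.54 (SE, n = 4 per group, limma adjusted p = 0.0279). All genes together shifted by a median of -0.707 in this comparison. After each library was centred on its median the Msx2 change was -1.01 (adjusted p = 0.326), with the ribosomal share as a covariate it was -1.75 (adjusted p = 0.328), and quantile normalization gave -1.07. The change was larger on scales that do not compress low counts, at -5.11 on the log2 of the normalised read count plus 1 (adjusted p = 0.0524) and -5.33 by voom (adjusted p = 0.0729), and it was not DE in any of these 5 fits. The call was also lost without the DRB tumour of mouse 14 (-1.87, adjusted p = 0.0847) or without any 1 of the combination tumours (-2.08 to -2.02, adjusted p = 0.0636 to 0.075), with a change of similar size.

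Runx2 read 12312, 7677, 11067 and 8671 with DRB and 2066, 1740, 2939 and 3904 with the combination. These groups did not overlap either (exact permutation p = 0.0286), but its log2 fold change of -1.88 ± 0.66 did not pass (limma adjusted p = 0.0818). Spp1 did not overlap (exact permutation p = 0.0286) and differed by -6.82 ± 2.15 (limma adjusted p = 0.0563). Centring the libraries on their medians gave -0.84 for Runx2, and the ribosomal covariate gave -1.28 (limma adjusted p = 0.552). In all, 3 of 6 members had groups that did not overlap, where 20.4% of all genes did. With only the DRB and combination tumours in the model, Runx2 (limma adjusted p = 0.0237), Msx2 and Spp1 (limma adjusted p = 0.00395) were DE. The share of all genes DE in that fit is not given here, so these calls cannot be set against it. The combination tumour of mouse 36 had a ribosomal share of 0.152%, within the 0.0861 to 0.841% of the DRB tumours, and in it Runx2 (1740), Msx2 (10.1) and Spp1 (78591) lay below all 4 DRB tumours. This is 1 tumour, and the part of the ribosomal share in the difference was not tested in it. It still differed from the DRB tumours in depth, at 41.1 M reads against 85.3 to 106 M. The genes with the most reads took 14.1% of its reads, against 46.7 to 73.5% in the DRB tumours. Its Spp1 value was far above those of the other combination tumours. Summed white blood cell markers (7 of 12 listed) moved in the same direction, at 20524 to 316398 with DRB and 6910 to 12440 with the combination, and their part was not tested.

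DkkMo against NT tumours had 0 of 6 members DE by limma and by voom, and 0 of 6 at an unadjusted p under 0.05. Among all genes 0% were DE by either, and 12.3% had an unadjusted p under 0.05. Sp7, the osterix gene, read 69.3, 270, 91.9 and 55.1 in NT and 585, 394, 354 and 452 with DkkMo. These groups did not overlap (exact permutation p = 0.0286), where 5.03% of all genes had groups that did not overlap, and its log2 fold change of 1.33 ± 0.78 did not pass (limma adjusted p = 0.468). The intervals were wide: the 95% interval for Spp1 ran from -7.46 to 1.49 and that for Runx2 from -2.39 to 0.37. In NT the Runx2 values were 3439, 3913 and 4538 in mice 1, 5 and 6 and 51592 in mouse 7, whose tumour also had the highest Spp1 and the highest ribosomal share. Without mouse 7 the Runx2 difference between DkkMo and NT was -0.09, against -1.01 with it.

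DRB against NT and the combination against DkkMo had 0 of 6 members DE by limma and by voom, against 0% of all genes by either test. Of the members 1 had an unadjusted p under 0.05 in the first (Msx2, log2 fold change 1.37 ± 0.54, adjusted p = 0.311) and 0 in the second, against 11.9% and 1.19% of all genes. Groups did not overlap for 0 of 6 members in either, against 4.07% and 2.93% of all genes. Alpl was 6453 ± 2393 (SD, n = 4) in NT, 4047 ± 1016 with DRB, 7214 ± 1083 with DkkMo and 8175 ± 4501 with the combination, and neighbouring groups overlapped throughout. Sparc was 140 ± 162, 166 ± 81.7, 81.5 ± 48.6 and 87.8 ± 61.2 in the same order. The interaction of DkkMo with DRB was DE for 0 of 6 members by limma and by voom, against 0% of all genes, with 0 of 6 at an unadjusted p under 0.05, against 6.77% of all genes.

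Of the wider list 48 genes were listed in tumours. Between the combination and DRB 2 of the 48 were DE, both lower with the combination, against 7.35% of all genes: Ank, a transporter that controls extracellular pyrophosphate (-4.61 ± 1.16, SE, adjusted p = 0.0238), and Runx1, a relative of Runx2 (-3.08 ± 0.71, adjusted p = 0.0162). Their median was -0.63 beside -0.71 over all genes. In the other tumour comparisons 0 of the 48 were DE by limma or voom, against 0% of all genes by either. An unadjusted p under 0.05 was seen for 5 of the 48 with DkkMo against NT (12.3% of all genes) and 2 with DRB against NT (11.9%). It was seen for 3 with the combination against DkkMo (1.19%) and 1 in the interaction (6.77%). Of the 8 osteoblast markers 5 were listed in tumours, with Bglap, Bglap2 and Ibsp not listed. Col1a1 was the highest of them, with group means of 7018 to 15542.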

How the data were processed

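RNA was sequenced from 18 cultures and 16 tumours. The authors aligned reads to GRCm38 with HISAT2 2.1.0 and counted them per gene with featureCounts of Subread 2.0.0, and the deposited tables hold DESeq2 variance-stabilised values on the log2 scale, made for cultures and tumours separately. Strandedness, the handling of reads that map to several places and the rule for listing genes are not given in the sources used here. The transformation was reversed, which gave whole reads (within 0.05 reads, for values under 1000 reads) for 100% of low culture values and at least 99.98% of low tumour values. The last 14 culture rows, which hold no member, spanned more than 6 on the log2 scale inside a group and were left out.

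Differences between group means were tested by limma 3.58.1 (R 4.3.3) with a variance trend, 1 mean per group and all libraries of a set in 1 model. P values were adjusted by Benjamini-Hochberg over all genes tested. A filter (above the lowest value in 3 culture or 4 tumour libraries) removed 0 genes. Exact permutation tests were two-sided and cannot go below 0.1 for 3 against 3 or 0.0286 for 4 against 4. The alternatives were no filter, genes above the median gene, the groups compared alone, no trend, median-centred libraries, quantile normalization, log2 of the normalised count plus 1, voom on the recovered reads, array weights, the replicate number as a block, other thresholds and each library left out. The ribosomal covariate and the interactions of each morpholino against NT with culture condition were added after seeing the data. The fit was also run on simulated data in which the spread of each gene was capped, so it cannot speak for the most scattered tumour genes. Its outcome is not given here. The members and gene lists were chosen with earlier results of these data known. Named beyond the members were up to 4 of the largest DE genes of the wider list in each comparison, the 2 genes most like each member (predicted genes left out) and the leading genes of marker lists. Exon lengths came from GENCODE M21 and promoter windows from RefSeq, both on GRCm38. Python 3.11.15 and Matplotlib were used for tables and plots. Depth per library left little counting error in Spp1 and Runx2, and in Sparc in cultures. It left more in Alpl and Phex in cultures and in Msx2, Sp7 and Sparc in tumours.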

Additional observations from a re-analysis of the deposited data

Results flagged for a closer look

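Among 24 sets of 4 tumours (6 members in 4 groups), 2 had a tumour far from the other 3, where chance gives about 1 in 20. In NT the Runx2 value of mouse 7 was 15.66 on the deposited log2 scale, and in the combination the Spp1 value of mouse 36 was 16.26.

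Effects that differed between log phase and nutritional stress, tested as interactions by limma at an adjusted p below 0.05, are given as stress minus log phase on the log2 scale. For DkkMo against scrMo these were Spp1 at -0.72, Sparc at -1.16 and Phex at 0.55. For scrMo against NT these were Runx2 at -0.52, Msx2 at 0.26, Spp1 at 0.90, Sparc at 1.00 and Phex at -0.43. For DkkMo against NT it was Runx2 at -0.39. The share of all genes passing this rule is not given here, so these lists cannot be set against it. With the 1.5-fold threshold as well, 2 of 6, 2 of 6 and 0 of 6 members passed in this order. Of all genes 3.7%, 10.9% and 3.92% did.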

How the results depend on the processing

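Of 1983 recomputed member values, 1908 kept their direction or their call as reported, 24 lost a call, 51 gained one and 0 called values changed sign, while 46 values that were not called changed sign. Counts of members DE changed as follows. For DkkMo against scrMo in log phase the count of 1 became 2 on the log2 of the normalised count plus 1 and with voom, 4 with no fold threshold and 0 at 2-fold. The same comparison under stress went from 0 to 1 on the count scale and with voom, and to 4 with no fold threshold. For scrMo against NT in log phase the count of 2 became 1 with median centring or quantile normalization, 0 at 2-fold and 1 to 2 with a library left out. Under stress it went from 0 to 2 on the count scale and with voom, and to 4 with no fold threshold. For DkkMo against NT the 0 in log phase became 1 and the 0 under stress 2 with no fold threshold, and leaving out a library gave 0 to 1 in log phase. For stress against log phase with scrMo the count of 2 became 1 with array weights, 5 with no fold threshold and 0 at 2-fold. For the interaction of DkkMo with condition 2 became 1 at 2-fold. For the combination against DRB in tumours 1 became 0 among genes above the median gene (Msx2 is not among them). It was also 0 with median centring, with quantile normalization, on the count scale, with voom and with the ribosomal covariate. The count was 3 with only the groups compared or with array weights, for which the share of all genes is not given here. With a tumour left out it was 0 to 1. For the wider list voom changed the count of genes DE from 7 to 11 for DkkMo against scrMo in log phase. For stress against log phase with scrMo it went from 16 to 28. The share of all genes DE by voom is not given here for either. For DkkMo against NT under stress the count went from 7 to 14, and all genes from 2.66% to 13.9%. For the interaction of DkkMo (against NT) with condition it went from 5 to 8, and all genes from 3.92% to 13.2%. For the combination against DRB it went from 2 to 0, and all genes from 7.35% to 0%. Beyond these constructions the cause was not tested. The replicate number as a block changed no count of members DE by over 1.5 times. Same-numbered libraries did not deviate together throughout, so the numbers were not taken as pairs. For DkkMo against scrMo in log phase their deviations from the group means correlated for numbers 1 (r = 0.624) and 3 (r = 0.57). They did not for number 2 (r = -0.0487), and unlike numbers gave -0.682 to 0.299. In the other comparisons same-numbered libraries gave -0.0586 to 0.35. No block could be used for NT cultures under stress or for tumours. Depth limits Alpl and Phex in cultures and Msx2, Sp7 and Sparc in tumours.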
